A study of Homo sapiens with 38 samples.

Results

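The genes described here are 44 genes of the nucleolus and of ribosome biogenesis, listed by name and read in every table of a compound against its DMSO control. The list was chosen with earlier results of these data known. All 44 were listed in all 15 tables, which held 15648 to 18573 genes each, and all 44 passed the filter on low values in every table, which asked for 10 or more normalized counts in 2 or more libraries. By role, 7 belong to RNA polymerase I and its regulators, 7 are proteins of small nucleolar ribonucleoprotein particles (snoRNPs), 4 are abundant nucleolar RNA-binding proteins, 12 act in the small subunit processome and 40S assembly, and 14 in 60S assembly.

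Polyadenylated RNA was sequenced from 38 samples of 3 human breast cancer cell lines, with 2 samples per group and 19 groups. T47D is an established luminal line, BT-549 an established line with mesenchymal features, and T47D-TR is named in the labels as a separate line with no further account of how it was derived. For 48 h, each line received 2.5 µM MS177 (a PROTAC, a bifunctional molecule built to send EZH2, the histone methyltransferase of Polycomb repressive complex PRC2, to the proteasome), MS177-N1 or MS177-N2 (both given as negative controls), C24 (an EZH2 methyltransferase inhibitor) or 0.125% DMSO. In a separate experiment of 30 h, T47D-TR received 2.5 µM MS8815 (another EZH2 PROTAC), MS8815-N (its negative control), EPZ-6438 (an EZH2 methyltransferase inhibitor) or 0.05% DMSO. The labels give 1 medium, with serum and insulin, for every group. Because a PROTAC acts on the protein, the EZH2 transcript is no check of these labels.

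Ribosomes are built in the nucleolus, where RNA polymerase I transcribes the ribosomal RNA precursor. Guided by snoRNPs, enzymes methylate and pseudouridylate this RNA, the small subunit processome cuts and folds the part that becomes the 40S subunit, and a further set of factors assembles the 60S subunit. In cancer cells the genes for these factors are known to be expressed together with growth, many of them as targets of the transcription factor MYC, which binds the hexamer CACGTG, called an E-box.

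Marker genes set the lines apart in DMSO. All 10 genes of the luminal list (among them ESR1, the estrogen receptor) were above 10 normalized counts in T47D and T47D-TR, and 6 of 10 in BT-549, where ESR1 was at 1.06 and 8.32 and EPCAM and SPDEF were not listed. For the mesenchymal and basal list, 10 of 10 genes were above that level in BT-549, 6 in T47D and 3 in T47D-TR, and vimentin (VIM) was at 81322 and 76622 in BT-549 against 7.76 and 5.43 in T47D-TR. Libraries held 32.1 M to 49.9 M reads in T47D and BT-549, and their depth is unknown in T47D-TR. Some libraries stood apart. The correlation of the 2 replicates over tested genes was 0.656 for MS8815-N, whose replicate 2 had 6933 of 15648 genes at 0, then 0.911 for MS8815, 0.917 for MS177 in T47D and 0.928 for EPZ-6438, and 0.962 to 0.991 for the other pairs. For MS177-N1 in T47D there was 1 library, since the column that would be the other held the values of MS177-N2 replicate 2 for all 17724 shared genes. In bulk RNA, fewer cells of a kind and less RNA per cell cannot be told apart, and each normalized count is a share of a library, not an amount per cell.

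Promoter sequences were looked up in RefSeq (GRCh38.p14) as windows of 300 bases, 250 before and 50 after the start listed there. Of the 44 members, 37 matched. That start can differ from the end of the gene span given for a member below, which is from GENCODE. In 16 of these 37 windows (43.2%) the palindrome CACGTG, which reads the same on both strands, was present, against 7.3% of all 35116 promoters and 10.0% of the 11166 promoters of genes tested in BT-549 with MS177. The members hold 17 matches, and 15 of these lie between 27 bases before and 36 bases after the start. The stretches of 30 bases below show the motif in capitals in its 12-base flanks, for 6 members chosen after their values were seen. Other members with a match near the start, such as RCL1, are not printed. The stretches are written 5′ to 3′ on the strand of the gene.
USP36: gcgtcgcggtgaCACGTGtgtgaggcgccg
RRP9: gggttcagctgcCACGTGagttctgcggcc
FBL: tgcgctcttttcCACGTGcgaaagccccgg
GNL2: gtacgtcgtgcaCACGTGgtccggcgtggt
WDR43: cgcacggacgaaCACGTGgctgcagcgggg
PES1: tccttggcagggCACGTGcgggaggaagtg

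In GRCh38.p14 these stretches are at chr17:78840824-78840853 (USP36, minus strand, motif 27 bases before the start used), chr3:51941892-51941921 (RRP9, minus strand, motif beginning 5 bases before that start), chr19:39846356-39846385 (FBL, minus strand, motif at base 7 from that start), chr1:37595917-37595946 (GNL2, minus strand, base 4), chr2:28894658-28894687 (WDR43, plus strand, base 4) and chr22:30591880-30591909 (PES1, minus strand, base 14). The full 250 bases upstream of the start used are given for USP36, the member with the largest rise in BT-549 and T47D-TR. They are also given for POLR1B, which has no CACGTG there and was lower in T47D-TR.
USP36: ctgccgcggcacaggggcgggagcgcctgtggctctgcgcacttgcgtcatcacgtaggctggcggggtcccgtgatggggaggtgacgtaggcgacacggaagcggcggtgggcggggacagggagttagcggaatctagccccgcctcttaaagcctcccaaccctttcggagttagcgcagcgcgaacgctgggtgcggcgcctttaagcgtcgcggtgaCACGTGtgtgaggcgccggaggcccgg
POLR1B: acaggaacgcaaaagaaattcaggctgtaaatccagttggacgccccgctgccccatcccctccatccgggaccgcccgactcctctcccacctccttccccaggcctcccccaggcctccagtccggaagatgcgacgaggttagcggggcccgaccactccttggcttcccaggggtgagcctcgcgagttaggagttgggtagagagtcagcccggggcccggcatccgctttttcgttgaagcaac

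The upstream stretch of USP36 is chr17:78840815-78841064 on the minus strand, and that of POLR1B is chr2:112541786-112542035 on the plus strand. The USP36 stretch lies inside the GENCODE span of the gene, which ends at 78841441. The POLR1B stretch runs past the start of its GENCODE span at 112541915. A match is a string of letters and not a measured binding site.

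Ribosome biogenesis genes were higher as a group in BT-549 after MS177. The list was chosen with earlier results of these data known, so its counts beside all genes are a description and not a test. Of the 44, 28 rose (63.6%) and 1 fell, where 11.5% of all 16336 tested genes rose and 12.6% fell (limma adjusted p under 0.05), and the median log2 difference of the members was 0.62 beside 0.01 for all tested genes. In 40 of the 44 both MS177 libraries lay above both DMSO libraries, which holds for 32.4% of all genes. The members together took 0.747% and 0.745% of all normalized counts in the DMSO libraries and 1.01% and 1.06% in the MS177 libraries. With 2 samples in each group the count depended on the controls: 18 members were called without DMSO replicate 1 (18.7% of all genes) and 14 without DMSO replicate 2 (18.3%).

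**Figure D1:**
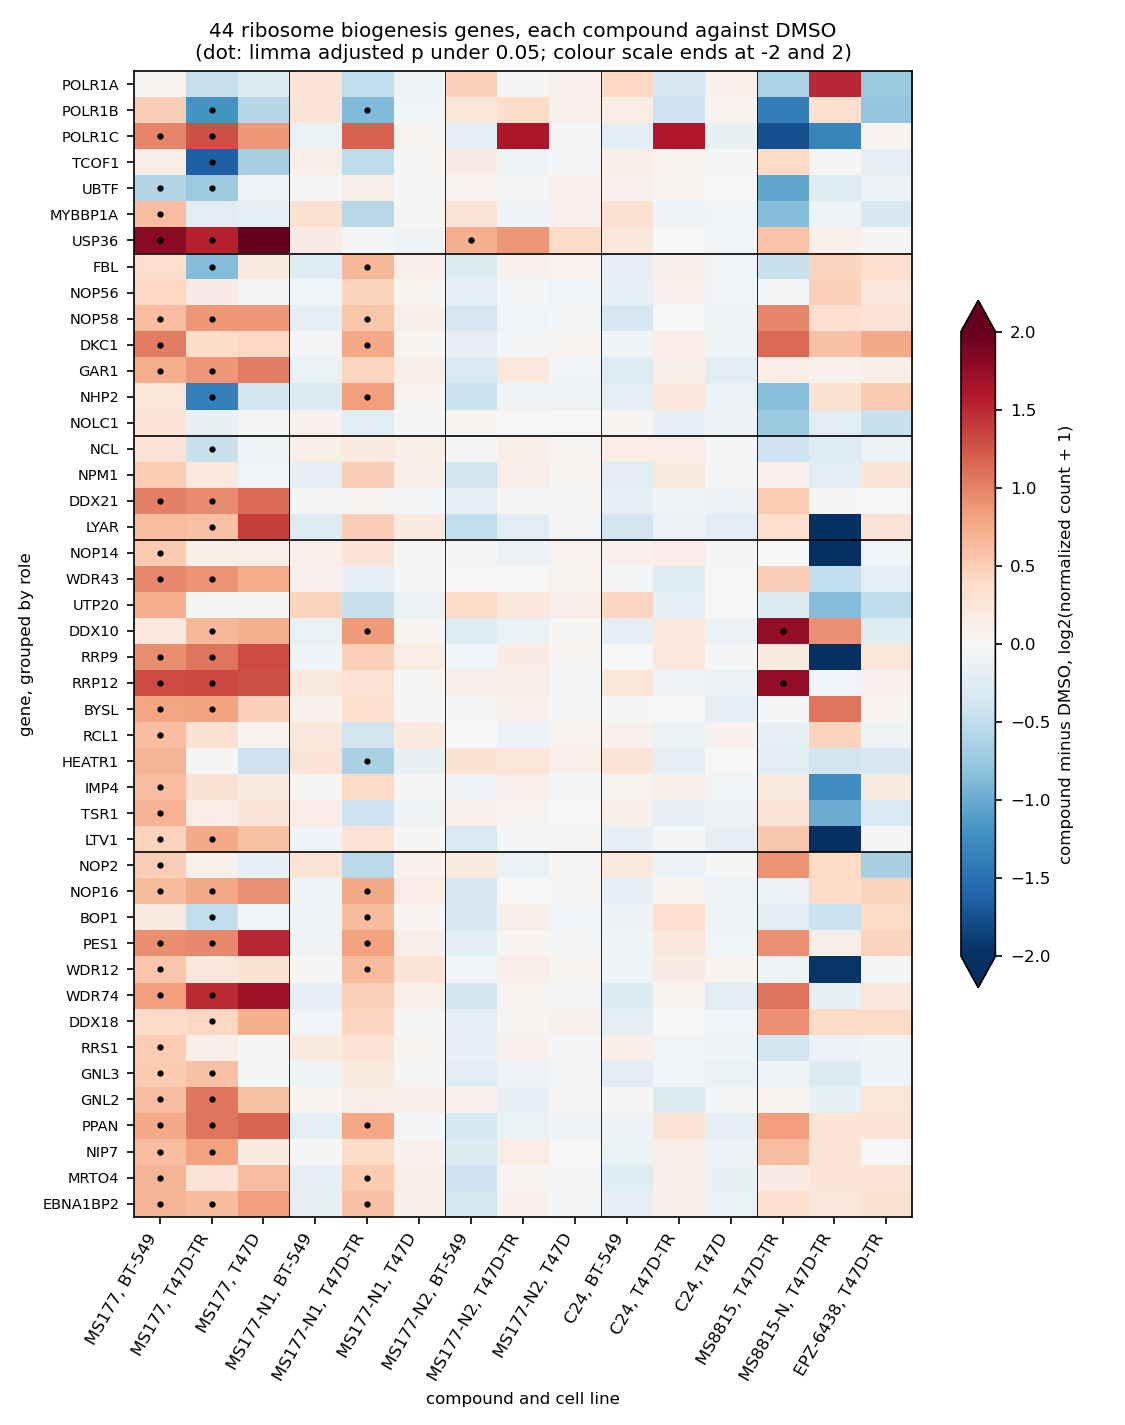
Difference between each compound and DMSO on the log2(normalized count + 1) scale (colour, from -2 to 2) for the 44 genes in rows, grouped by role, and the 15 comparisons in columns; a dot marks a limma adjusted p under 0.05. The dots gather in MS177 in BT-549 (29) and T47D-TR (28) and in MS177-N1 in T47D-TR (14), and MS177 in T47D has the same colours in many rows with no dot.

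Among the RNA polymerase I genes in BT-549, 3 of 7 rose and 1 fell, beside 1871 and 2053 of all 16336 tested genes. The largest rise of all members was that of USP36 (chr17:78787381-78841441, minus strand, GENCODE on GRCh38), which encodes the nucleolar deubiquitinase that keeps RNA polymerase I and fibrillarin from being degraded. It stood at 1935 and 1938 normalized counts in DMSO and at 6911 and 6692 with MS177, a log2 difference of 1.81 ± 0.11 (SE, limma adjusted p = 0.00149). The 2 groups were tight and far apart. POLR1C, a subunit shared by RNA polymerases I and III, was at 1469 and 1393 against 2643 and 3003 (0.98 ± 0.12, adjusted p = 0.007). It overlaps XPO5, YIPF3 and LRRC73 on the opposite strand, and the counting is not stated to use strand. The catalytic subunits POLR1A and POLR1B were not called: POLR1A stood at 2044 and 2784 in DMSO and 3105 and 1999 with MS177, with overlapping groups, and POLR1B at 1170 and 1403 against 2083 and 1566 (0.49 ± 0.18, adjusted p = 0.112). UBTF (chr17:44205033-44221626, minus strand), the factor that binds ribosomal DNA and holds it open, was the 1 member that fell, from 8419 and 8812 to 5676 and 5803, a log2 difference of -0.59 ± 0.11 (adjusted p = 0.0177). Its groups did not overlap, and its call was lost when either DMSO library was left out (-0.62 without replicate 1, -0.55 without replicate 2).

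Of the 7 snoRNP genes, 3 rose in BT-549, beside 1871 of all 16336 tested genes. DKC1 (chrX:154762742-154777689, plus strand) encodes dyskerin, the pseudouridine synthase of box H/ACA particles, and went from 7846 and 7559 normalized counts to 14771 and 16471, a log2 difference of 1.02 ± 0.12 (limma adjusted p = 0.0059). GAR1, of the same particle, rose by 0.72 ± 0.14 and NOP58, of the box C/D particle that carries the methyltransferase, by 0.62 ± 0.15. The other H/ACA protein, NHP2, had overlapping groups (11121 and 8748 in DMSO, 9511 and 14317 with MS177). NOP56 missed the threshold at 8542 and 8053 against 10535 and 11741 (0.42 ± 0.12, adjusted p = 0.0571), and so did FBL, which encodes the methyltransferase fibrillarin, at 12228 and 10343 against 12387 and 16624 (0.35 ± 0.19, adjusted p = 0.221). NOP56 has 3 named pseudogenes, which may share its reads.

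Of the 4 nucleolar RNA-binding genes 1 rose, beside 1871 of all 16336 tested genes, and this was DDX21. This RNA helicase, which works in rRNA transcription and processing, was at 10047 and 9995 normalized counts in DMSO and 19611 and 20432 with MS177 (1.00 ± 0.11, limma adjusted p = 0.00548). NCL (nucleolin, the most studied rRNA chaperone of the nucleolus) was at 31491 and 32767 against 39419 and 38900, and NPM1 (nucleophosmin, a chaperone of ribosome assembly) at 69065 and 59489 against 81244 and 101455. Neither was called (adjusted p = 0.15 and 0.0993), although the groups of both were apart. NPM1 has 45 named pseudogenes, so its value is uncertain.

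The assembly factors, the largest groups of the list, gave most of the calls in BT-549. These were 9 of 12 in the 40S group and 12 of 14 in the 60S group, all higher, beside 1871 higher and 2053 lower of all 16336 tested genes. RRP12 (chr10:97356358-97426076, minus strand), a factor needed for export and maturation of the pre-40S particle, was at 2418 and 2657 normalized counts in DMSO and 6189 and 6374 with MS177, a log2 difference of 1.31 ± 0.11 (limma adjusted p = 0.00295). WDR43 of the early processome rose by 0.96 ± 0.13, and RRP9, a protein of the U3 snoRNP, by 0.93 ± 0.17. HEATR1 and UTP20, which are large scaffold proteins of the processome, were at 0.68 ± 0.23 and 0.72 ± 0.27 and missed the threshold, as did the helicase DDX10 at 0.21 ± 0.12. In the 60S group PES1 rose by 0.93 ± 0.17 and WDR12 by 0.55 ± 0.11, while BOP1, the third protein of the same complex, had overlapping groups at 12847 and 11483 against 12202 and 15711 (0.19 ± 0.16, adjusted p = 0.443). PPAN rose by 0.76 ± 0.14, but overlaps the read-through gene PPAN-P2RY11 on its own strand.

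**Figure D2:**
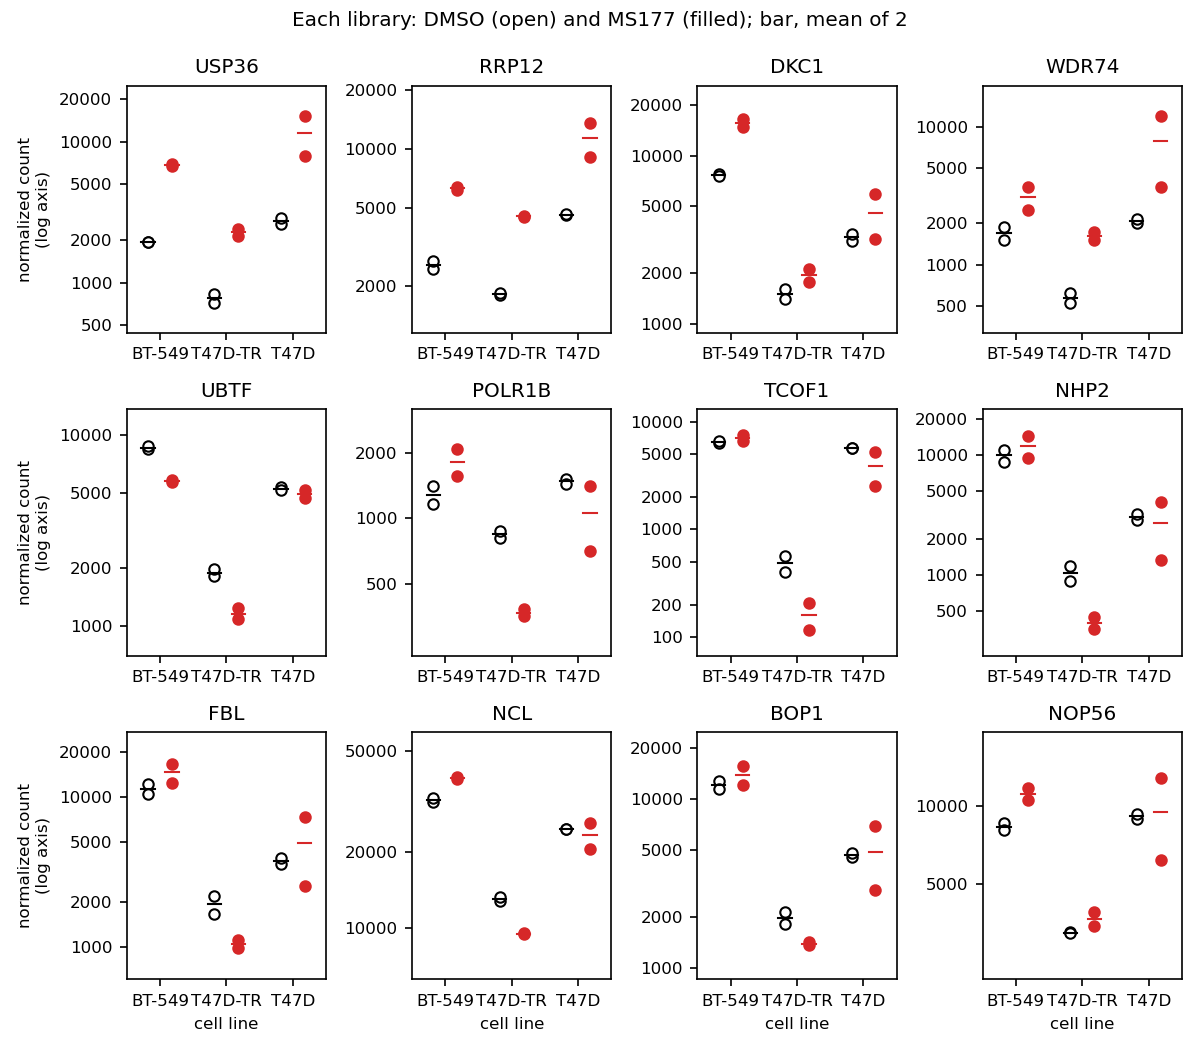
Normalized counts on a log axis for 12 members in the DMSO libraries (open) and MS177 libraries (filled) of each cell line; bars are means of 2 libraries. USP36 and RRP12 lie above DMSO in all 3 lines, TCOF1, NHP2 and POLR1B lie below DMSO in T47D-TR, and the 2 MS177 libraries of T47D lie far apart in most panels; levels are comparable within a line only.

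In T47D-TR the genes moved in both directions after MS177. Of the 44, 21 rose (47.7%, against 27.6% of the 14555 tested genes) and 7 fell (15.9%, against 26.9%), with 54.6% of all genes called, so the share called in either direction was near the background while the share that rose was above it. The median of the members was 0.34 beside 0.00 for all tested genes. Their part of all normalized counts was 0.646% and 0.652% in DMSO and 0.731% and 0.765% with MS177. Leaving out 1 library at a time gave 23 to 28 calls.

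RNA polymerase I genes moved both ways in T47D-TR, with 2 of 7 higher and 3 lower, beside 4023 and 3922 of all 14555 tested genes. The share higher was near the background. USP36 stood at 724 and 836 normalized counts in DMSO and 2422 and 2148 with MS177 (1.55 ± 0.13, limma adjusted p = 0.000219). TCOF1 (chr5:150357629-150400308, plus strand), the nucleolar scaffold treacle that holds RNA polymerase I and UBTF at ribosomal DNA, went from 404 and 564 to 115 and 205, a log2 difference of -1.63 ± 0.30 (adjusted p = 0.00473). POLR1B (chr2:112541915-112577150, plus strand) fell from 813 and 872 to 380 and 355 (-1.19 ± 0.13, adjusted p = 0.000553). UBTF fell here too, from 1821 and 1974 to 1235 and 1079 (-0.72 ± 0.12, adjusted p = 0.00316). For each of these 4 genes the groups were apart, whereas POLR1A overlapped at 1030 and 1461 in DMSO against 1116 and 713 with MS177 (-0.46 ± 0.25). POLR1C was higher with MS177, at 45.9 and 47.8 against 132 and 98.5 (1.27 ± 0.25, adjusted p = 0.00607).

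Of the 7 snoRNP genes in T47D-TR, 2 rose and 2 fell, beside 4023 and 3922 of all 14555 tested genes. Both shares were near the background. In the box H/ACA particle GAR1 rose by 0.86 ± 0.15 while NHP2 (chr5:178149460-178153967, minus strand) went from 1178 and 891 to 356 and 446, a log2 difference of -1.36 ± 0.19 (limma adjusted p = 0.00137). DKC1, at 1603 and 1398 against 1761 and 2125, missed the threshold (0.37 ± 0.14, adjusted p = 0.0596). In the box C/D particle NOP58 rose by 0.87 ± 0.11, FBL fell from 2194 and 1655 to 981 and 1111 (-0.87 ± 0.16, adjusted p = 0.00464), and NOP56 was at 3258 and 3211 against 3424 and 3879 (0.17 ± 0.11, adjusted p = 0.224). NHP2 has 2 named pseudogenes and overlaps RMND5B on the opposite strand.

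Among the RNA-binding genes of T47D-TR, DDX21 rose from 5115 and 5231 to 9830 and 10229 (0.95 ± 0.10), and LYAR, a nucleolar zinc finger protein, by 0.58 ± 0.15. NCL fell from 12777 and 13298 to 9484 and 9592, a log2 difference of -0.45 ± 0.10 (limma adjusted p = 0.01). That call was lost when either MS177 library was left out (-0.44 and -0.46) and in the fit of all T47D-TR libraries. NPM1 was at 24364 and 21103 against 24434 and 28216, with no call (0.21 ± 0.13, adjusted p = 0.214).

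Assembly factors again gave mostly higher values in T47D-TR, with 6 of 12 called higher in the 40S group. In the 60S group 9 of 14 were higher and 1 lower. Of all 14555 tested genes, 4023 rose and 3922 fell. RRP12 went from 1779 and 1841 to 4557 and 4484 (1.32 ± 0.10, limma adjusted p = 0.000156). WDR74 (chr11:62832342-62841809, minus strand), a 60S assembly factor, went from 620 and 528 to 1509 and 1724, a log2 difference of 1.49 ± 0.14 (adjusted p = 0.000316). It overlaps TEX54 on its own strand and AP001160.1 on the opposite strand. GNL2, a nucleolar GTPase of the pre-60S particle, rose by 1.07 ± 0.13, PPAN by 1.07 ± 0.15 and PES1 by 0.96 ± 0.12. BOP1, the partner of PES1, fell from 2152 and 1817 to 1366 and 1436 (-0.50 ± 0.12, adjusted p = 0.0145), a call lost without either MS177 library (-0.46 and -0.53) and in the fit of all T47D-TR libraries.

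Set side by side, 18 members rose with MS177 in both BT-549 and T47D-TR, UBTF fell in both, and no member rose in one and fell in the other. Of all tested genes, 1871 of 16336 rose and 2053 fell in BT-549, and 4023 of 14555 rose and 3922 fell in T47D-TR. How many of all genes were called in both lines was not counted, so these pairs of calls describe the members only. A further 10 were called higher in BT-549 only by threshold (DKC1, IMP4, MRTO4, MYBBP1A, NOP14, NOP2, RCL1, RRS1, TSR1 and WDR12), 3 higher in T47D-TR only by threshold (DDX10, DDX18 and LYAR), 6 lower there and not called in BT-549 (BOP1, FBL, NCL, NHP2, POLR1B and TCOF1), and 6 were called in neither line (HEATR1, NOLC1, NOP56, NPM1, POLR1A and UTP20). The difference in response was tested as an interaction of compound and line. It was called for 8 of 44 members, all lower in T47D-TR, beside 17.6% of all 11945 tested genes lower and 14.9% higher (32.5% in all), so the share of members lower (18.2%) was at the background and none was higher. These were TCOF1 (-1.76 ± 0.38, limma adjusted p = 0.0108), POLR1B (-1.69 ± 0.23, adjusted p = 0.00157), NHP2 (-1.60 ± 0.33, adjusted p = 0.0094), FBL (-1.22), MYBBP1A (-0.83), NCL (-0.74), BOP1 (-0.69) and DKC1 (-0.65). For USP36 and RRP12 the responses differed by -0.26 (95% interval -0.63 to 0.10) and 0.01 (-0.29 to 0.32).

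**Figure D3:**
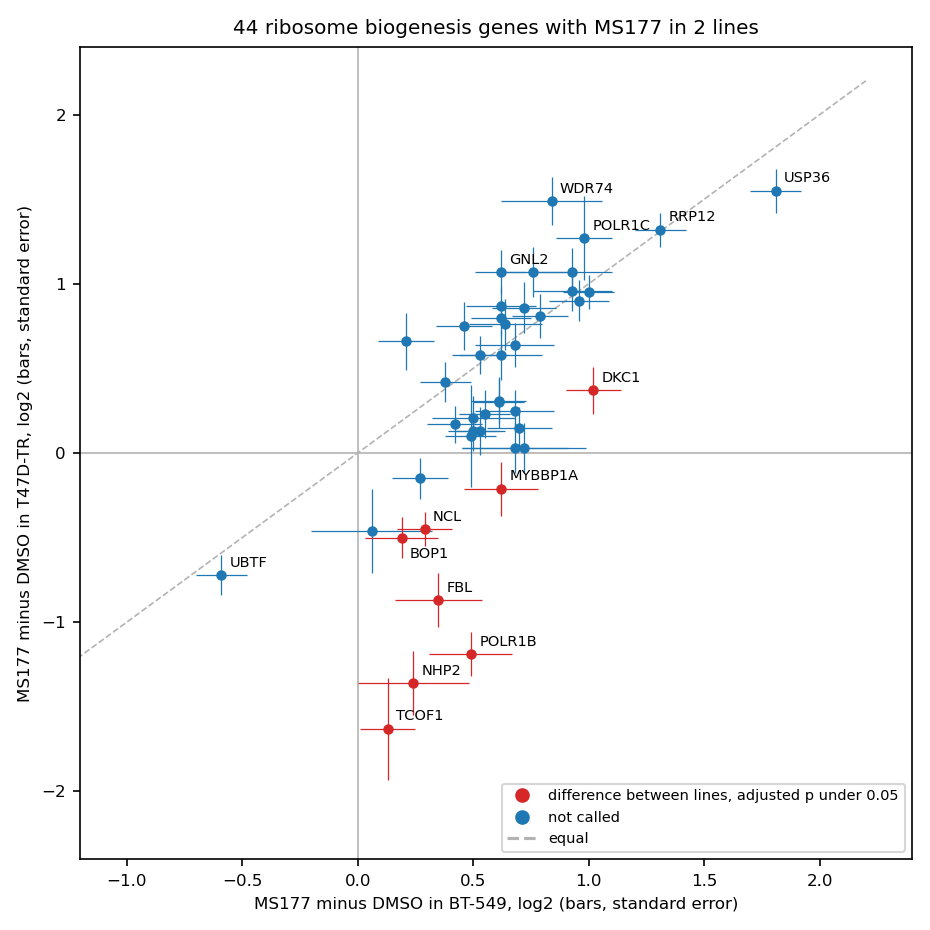
Log2 difference of MS177 from DMSO in BT-549 (horizontal) and T47D-TR (vertical) for the 44 genes, with standard errors; the dashed line marks equal differences and red marks the 8 genes whose difference between the lines passed adjusted p under 0.05. The red points lie below the dashed line, from DKC1 at 1.02 and 0.37 to TCOF1 at 0.13 and -1.63.

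In T47D no member passed the threshold after MS177, and no gene of 17370 did (0%, limma); at an unadjusted p under 0.05 there were 3163 genes and 6 members, all 6 higher. The MS177 libraries of T47D differed: ribosomal protein transcripts took 15.03% of replicate 1 and 5.71% of replicate 2, beside 5.49% and 6.33% in DMSO, and mitochondrially encoded transcripts 2.30% and 4.69%, beside 4.98% and 5.07%. The members' median difference from the DMSO mean was 0.55 in replicate 1 and 0.20 in replicate 2, and the part of these libraries in the result was not tested. Even so, 22 members had both MS177 libraries above both DMSO libraries and 3 had both below, beside 27.5% and 28.2% of all genes. With only MS177 replicate 2, 24 members (54.5%) were called beside 50.7% of all genes, and with only replicate 1, 34 (77.3%) beside 71.2%, in fits that assume the lone library to vary as the DMSO libraries do. Both shares of members were near those of all genes.

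USP36 in T47D was at 2619 and 2870 normalized counts in DMSO and 15153 and 7904 with MS177 (2.0 ± 0.41, limma adjusted p = 0.15). RRP12 was at 4587 and 4634 against 13538 and 9130 (1.27 ± 0.32, adjusted p = 0.187), and DDX21 at 11296 and 11605 against 32818 and 19449 (1.14 ± 0.38, adjusted p = 0.247). In these genes both MS177 libraries were high. TCOF1 was at 5734 and 5719 against 5232 and 2518, and POLR1B at 1523 and 1438 against 708 and 1410, both libraries below DMSO. For FBL (3579 and 3903 against 7268 and 2545), NOP56 (8863 and 9316 against 12793 and 6160), BOP1 (4538 and 4804 against 6906 and 2908), DKC1 (3120 and 3404 against 5954 and 3201) and NHP2 (2856 and 3236 against 4045 and 1336), the 2 MS177 libraries lay on either side of DMSO or of one DMSO library. POLR1A was at 3067 and 2361 against 1394 and 3485, NCL at 24610 and 24672 against 25969 and 20628, and NPM1 at 47722 and 54505 against 55545 and 43860, also on either side. The response in T47D differed from that in BT-549 for 0 members (1.72% of all genes, 2 members at unadjusted p under 0.05) and from that in T47D-TR for 0 (0.0314% of all genes, 3 members at unadjusted p under 0.05). The other tool run on these counts, limma voom on recovered reads, also called 0 members with MS177 in T47D.

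**Figure D4:**
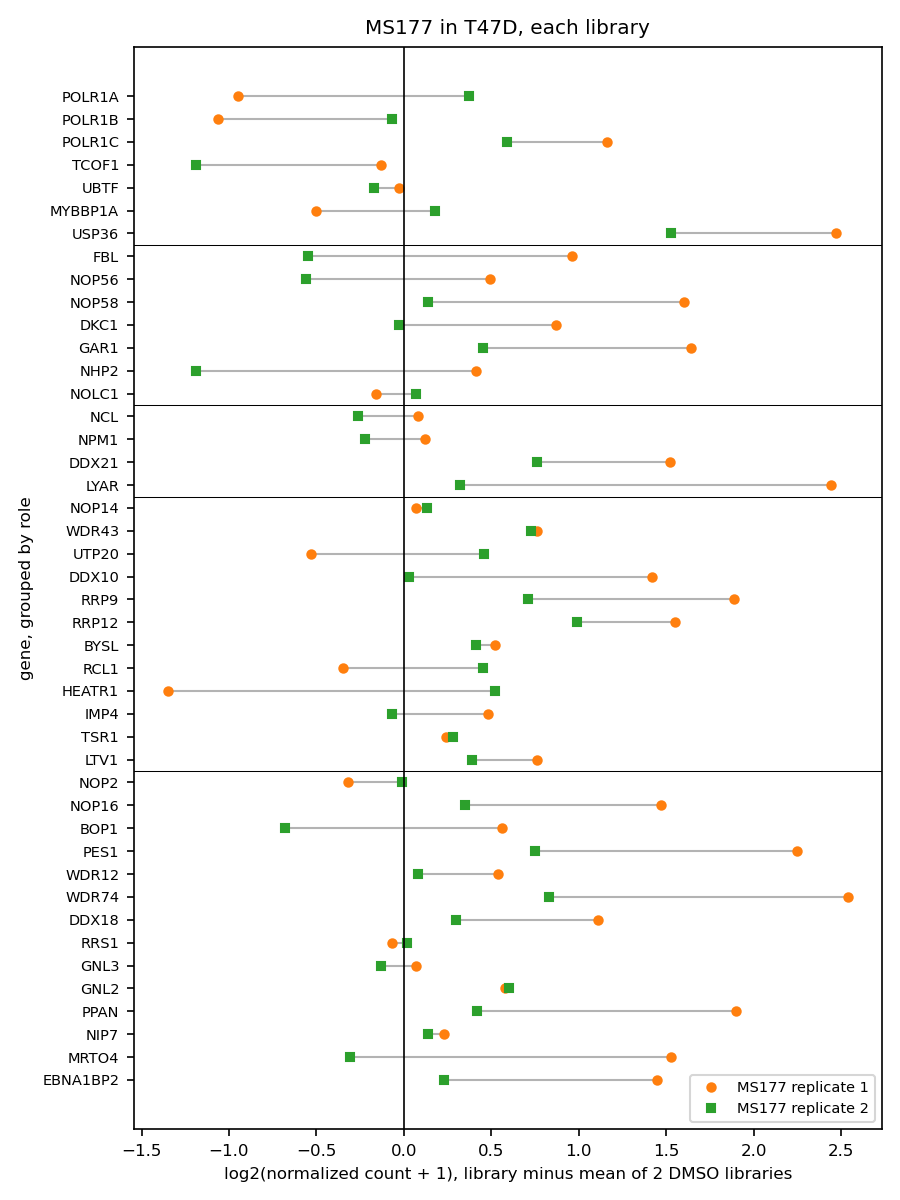
Each MS177 library of T47D minus the mean of the 2 DMSO libraries, on the log2(normalized count + 1) scale, for the 44 genes grouped by role; circles are replicate 1, squares replicate 2, and a grey line joins them. WDR74 spans 0.83 to 2.54 and HEATR1 -1.35 to 0.52, while WDR43 is at 0.76 and 0.73 and GNL2 at 0.58 and 0.60.

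The related compounds were compared with MS177 at the same dose and time, in 9 pairs over the 3 lines. In BT-549, MS177 was above MS177-N1 for 30 members (15.4% of all genes higher, 17.7% lower), above MS177-N2 for 33 (17.8% and 19.4%) and above C24 for 31 (16.8% and 18.8%), and below each for 1 member, UBTF. The count against MS177-N1 was 18 without MS177 replicate 2 and 20 without MS177-N1 replicate 2. In T47D-TR it was above MS177-N1 for 13 and below for 6 (23.9% of all genes higher, 26.7% lower), above MS177-N2 for 19 and below for 6 (21.8% and 24.5%), and above C24 for 19 and below for 7 (22.3% and 25.7%). There 12 calls in all were left against MS177-N1 without MS177 replicate 1, 16 against MS177-N2 without MS177-N2 replicate 2, and 15 against C24 without MS177 replicate 2. In T47D, where MS177-N1 is 1 library assumed to vary like the other groups, MS177 was above MS177-N1 for 3 (3.56% of all genes higher), MS177-N2 for 6 (7.58%) and C24 for 9 (8.28%), with 0 left when the fit held only the compared libraries. Without 1 or the other MS177 library these T47D counts were 26 to 37 (59.1% to 84.1% of members, beside 53.7% to 74.9% of all genes), and without any 1 library of MS177-N2 or C24 the counts against those compounds were 0. USP36 was higher with MS177 than with all 3 related compounds in each line, by 1.08 to 1.65 in BT-549, 0.67 to 1.59 in T47D-TR and 1.62 to 2.07 in T47D.

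Against DMSO, at most 1 member was called with MS177-N2 or C24 in any line. With MS177-N2 in BT-549, 1 member was called higher (1.23% of all genes), and this was USP36, at 1868 and 1866 normalized counts in DMSO and 3044 and 3161 with the compound (0.73 ± 0.14, limma adjusted p = 0.0129). Without DMSO replicate 1 the difference was again 0.73, and it no longer passed the threshold. In T47D-TR with MS177-N2, USP36 was at 739 and 860 against 1329 and 1612 (0.88, 95% interval 0.51 to 1.24) with an adjusted p of 0.238, and in T47D the difference was 0.37 (0.23 to 0.52, adjusted p = 0.275). No member was called with MS177-N2 in T47D-TR (0.111% of all genes, 3 members at unadjusted p under 0.05) or T47D (0%, 1 member), with C24 in BT-549 (0.165%, 1 member), T47D (0.574%, 3 members) or T47D-TR (0.0140%, 1 member), or with MS177-N1 in BT-549 (0%, 0 members) or T47D (0.0651%, 0 members). The last of these rests on 1 MS177-N1 library, whose spread is taken from the DMSO libraries, so its lack of calls says little. The median differences of the members in these 8 comparisons without MS177 ran from -0.16 to 0.06.

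With MS177-N1 in T47D-TR, 12 members rose (27.3%, beside 9.92% of all 14038 tested genes) and 2 fell (4.5%, beside 7.39%), with 17.3% of all genes called and a member median of 0.35. The rises were in snoRNP genes (4 of 7) and 60S assembly genes (7 of 14), with DDX10 of the 40S group. FBL was at 1927 and 1441 normalized counts in DMSO and 2392 and 2899 with MS177-N1 (0.66 ± 0.18, limma adjusted p = 0.0329), NHP2 at 1056 and 792 against 1515 and 1736 (0.83 ± 0.17, adjusted p = 0.0168), and BOP1 at 1876 and 1569 against 2299 and 3096 (0.64 ± 0.18, adjusted p = 0.0366). These 3 are genes that fell with MS177 in the same line, against the same DMSO libraries, and the direct test put MS177 below MS177-N1 by 1.53 ± 0.24 for FBL, 2.19 ± 0.20 for NHP2 and 1.13 ± 0.25 for BOP1.

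DKC1 was at 1348 and 1165 against 2011 and 2299 with MS177-N1 (0.78 ± 0.15, adjusted p = 0.0138). Of the 2 members that fell, POLR1B went from 674 and 717 to 366 and 386 (-0.88 ± 0.16, limma adjusted p = 0.0119), and HEATR1 from 1456 and 1757 to 1136 and 912 (-0.65 ± 0.17, adjusted p = 0.0294). NPM1 (22305 and 19150 against 28326 and 29951), NOP56 (2713 and 2650 against 3337 and 3968), POLR1A (783 and 1102 against 605 and 711) and NCL (11508 and 11871 against 11803 and 15273) were not called. All 14 calls were lost in the fit of all T47D-TR libraries, where 5 of all 15039 tested genes were called. The members' calls were also lost without DMSO replicate 2 and without MS177-N1 replicate 2. Calls over all genes dropped in these fits too, so the loss is not particular to the members. In the same libraries 10 of 13 mitochondrially encoded transcripts were lower and 50 of 79 cytosolic ribosomal protein genes higher, with mitochondrial shares of 0.725% and 0.505% against 1.20% and 1.65% in DMSO, and their part in the result was not tested. Against MS177-N2, MS177-N1 was higher for 4 members (NOP58, NHP2, PPAN and LYAR) and lower for 4 (POLR1B, HEATR1, UTP20 and USP36), beside 4.72% and 4.48% of all genes, with 0 or 1 left when any of the 4 libraries was left out. Against C24 it differed for 0 (0.0465% of all genes, 16 members at unadjusted p under 0.05). The response to MS177-N1 in T47D-TR differed from that in BT-549 for 0 members (0.103% of all genes, 27 members at unadjusted p under 0.05).

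**Figure D5:**
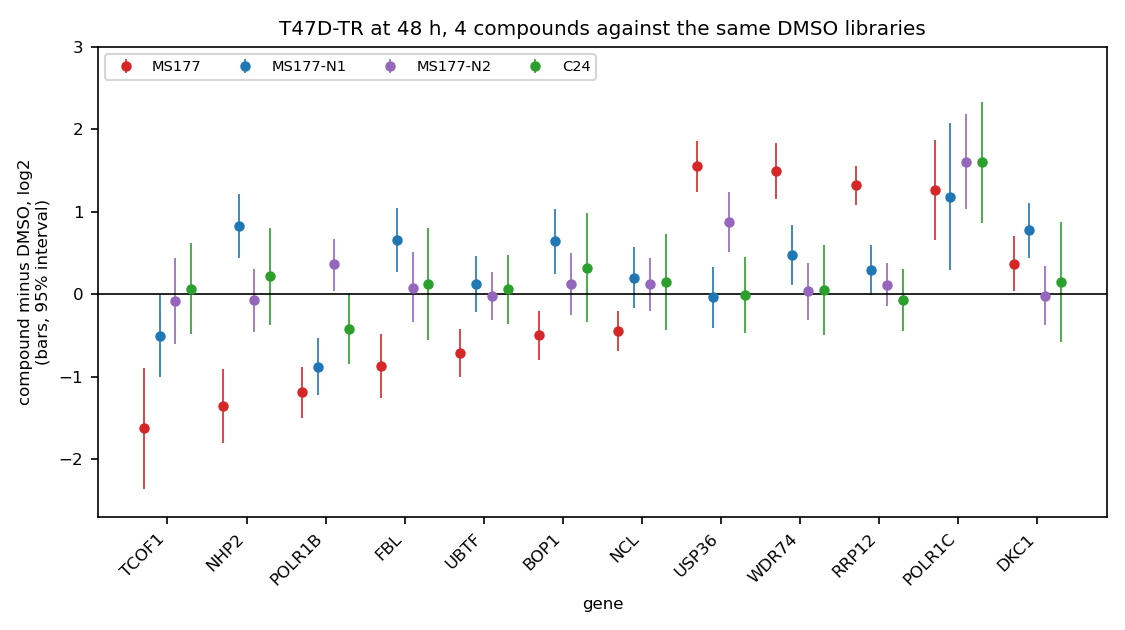
Log2 difference from DMSO with its 95% interval for 12 members in T47D-TR after 48 h with MS177, MS177-N1, MS177-N2 and C24, which share the same DMSO libraries. NHP2, FBL and BOP1 are below 0 with MS177 and above 0 with MS177-N1, POLR1B is below 0 with both, and POLR1C is above 0 with all 4 compounds.

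POLR1C in T47D-TR had few counts in the shared DMSO libraries, 45.9 and 47.8 in the MS177 table. Its differences were 1.27 with MS177, 1.18 with MS177-N1, 1.61 with MS177-N2 and 1.60 with C24, and only the first passed the threshold. MS177 differed from these related compounds by 0.08 (95% interval -0.82 to 0.98), -0.34 (-1.24 to 0.55) and -0.33 (-1.23 to 0.57). In BT-549 POLR1C was above each of them with MS177, by 1.11 to 1.20.

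With MS8815 in T47D-TR after 30 h, 2 members rose and 0 fell, beside 3.01% and 2.18% of all 13456 tested genes. RRP12 was at 1033 and 1049 normalized counts in DMSO and 3515 and 3510 with MS8815 (1.75 ± 0.19, limma adjusted p = 0.0327), and DDX10, a helicase of the processome, at 344 and 297 against 1369 and 860 (1.76 ± 0.30, adjusted p = 0.0481). Without either DMSO library neither passed the threshold, at differences of 1.74 and 1.76 for RRP12 and 1.86 and 1.65 for DDX10. POLR1B was at 490 and 555 against 152 and 260 (-1.39 ± 0.33, adjusted p = 0.0777) and POLR1A at 514 and 466 against 242 and 404 (-0.64 ± 0.31, adjusted p = 0.251), each with MS8815 libraries below DMSO. FBL was at 2141 and 1883 against 1509 and 1434, BOP1 at 1726 and 1643 against 1575 and 1333, and NCL at 6490 and 7267 against 4338 and 6073, also below and not called. NPM1 (18938 and 19485 against 19472 and 21364), NOP56 (1966 and 1876 against 2597 and 1339) and DKC1 (846 and 876 against 4238 and 850) had overlapping groups, and for DKC1 replicate 1 alone was high.

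Neither MS8815-N (0% of all genes, 0 members at unadjusted p under 0.05) nor EPZ-6438 (0%, 1 member) gave a call against DMSO. In the direct tests MS8815 differed from MS8815-N for 0 members (0.0576% of all genes, 5 at unadjusted p under 0.05) and from EPZ-6438 for 0 (0.115%, 5). The intervals were wide: for RRP12 the difference was 1.81 (95% interval 1.07 to 2.55, adjusted p = 0.112) against MS8815-N and 1.66 (0.92 to 2.4, adjusted p = 0.178) against EPZ-6438. With MS8815-N replicate 2, 4 members were listed at 0. Single libraries decided these counts, for all genes as for the members. With MS8815 replicate 2 alone 19 members (43.2%) were called beside 44.9% of all genes, and with replicate 1 alone 30 (68.2%) beside 56.5%. With either MS8815-N library alone 28 (63.6%) were called, beside 78.3% of all genes for replicate 2 and 39.7% for replicate 1, and with EPZ-6438 replicate 2 alone 25 (56.8%) beside 38.1%. The 30 h and 48 h experiments differ in time, DMSO percentage and compound, so MS8815 and MS177 were not compared.

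Other genes of the pathway, from lists of further known factors, were counted in the same fits of MS177 against DMSO. Of all tested genes, 1871 of 16336 rose and 2053 fell in BT-549, and 4023 of 14555 rose and 3922 fell in T47D-TR. In BT-549, 17 of 44 further 40S assembly genes rose, 18 of 44 further 60S genes, 3 of 10 further snoRNP genes, 4 of 14 RNA exosome genes and 2 of 11 further RNA polymerase I genes, and 0 fell in any of these lists; the list medians were 0.22 to 0.52. PNO1, a late 40S factor, rose by 1.16 ± 0.11, RSL24D1, a 60S factor, by 1.30 ± 0.20, ZNHIT6, a box C/D assembly factor, by 1.28 ± 0.11, and RRN3, which brings RNA polymerase I to its promoter, by 0.89 ± 0.12. In T47D-TR, 27 of the 44 further 40S genes rose and 3 fell, 20 of 44 60S genes rose and 1 fell, 5 of 10 snoRNP genes rose, 8 of 14 exosome genes rose and 3 fell, and 4 of 11 polymerase genes rose and 1 fell. There TEX10 (1.54 ± 0.15), PNO1 (1.41 ± 0.12) and TAF1D (1.5 ± 0.13), an RNA polymerase I selectivity factor, were among the largest rises, EXOSC6 rose by 1.94 ± 0.11, POLR1G, an RNA polymerase I subunit, fell by 1.22 ± 0.14, and EXOSC2 and EXOSC10 of the exosome fell by 0.95 ± 0.13 and 0.81 ± 0.14.

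The ribosomal proteins themselves were counted apart, beside the same counts over all tested genes. Those were 1871 of 16336 higher and 2053 lower in BT-549, and 4023 of 14555 higher and 3922 lower in T47D-TR. In BT-549 1 of 79 cytosolic ribosomal protein genes was called (RPL12, 0.75 ± 0.18), with a list median of 0.30, and in T47D-TR 27 rose and 3 fell, with a median of 0.35. Among these RPS27 rose by 1.67 ± 0.17 and RPS4X fell by 0.63 ± 0.11. Proliferation markers moved with MS177 too: 15 of 15 fell in T47D-TR (median -3.05) and 8 of 15 in BT-549 (median -0.58), and in T47D, with 0 called, their median was -2.23. Mitochondrially encoded transcripts were lower for 7 of 13 in BT-549 and 1 of 13 in T47D-TR. The part of these in the members' values was not tested.

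MYC, whose product binds CACGTG, was higher with MS177 by 1.22 ± 0.11 in BT-549 (limma adjusted p = 0.00352) and by 0.38 ± 0.12 in T47D-TR (adjusted p = 0.0311), and the difference between the lines was -0.84 ± 0.15 (adjusted p = 0.00444). In T47D it was 0.58 ± 0.39 (adjusted p = 0.471). These values are of the MYC transcript and do not give the amount of MYC protein. The part of MYC in the members' values was not tested. The members with CACGTG in their promoter window gave 14 rises and 0 falls of 16 in BT-549 and those without gave 11 rises and 1 fall of 21, with medians of 0.65 and 0.62. Of all 16336 tested genes there, 1871 rose and 2053 fell. In T47D-TR the counts were 8 rises and 1 fall (FBL) with the motif and 10 rises and 4 falls without it, with medians of 0.48 and 0.37. Of all 14555 tested genes there, 4023 rose and 3922 fell. Calls over all genes were not counted by motif, so a part of the motif in these counts was not tested. The members with no promoter sequence, among them RRP12, NOP58, TCOF1 and BOP1, are in neither count. USP36, RRP9, GNL2, WDR43 and PES1, whose sequences are printed above, rose in both lines, but they were chosen after their values were seen. RCL1, not printed and with the motif at base 5, rose in BT-549 and was not called in T47D-TR. Members with no CACGTG in the window also rose in both lines, among them DDX21, WDR74, GAR1, GNL3 and POLR1C.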

How the data were processed

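The deposited values are log2 numbers per gene and library, in 15 tables of 1 compound with its DMSO libraries. For what the authors ran, the submitters' processing notes name RSEM, DESeq and the build hg38; the aligner is not given in the sources used here. The values have the form of a variance-stabilizing transform of the authors, which was undone exactly with each table's lowest value, giving normalized counts. In T47D and BT-549 every value of at most 1000 reads is a whole number of reads, to within 0.05, times a factor of its library (100% of them), and libraries hold 32.1 M to 49.9 M reads. In T47D-TR they carry a further factor per gene, equal for both DMSO libraries, so levels there are compared within a table only, and depth is unknown.

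Each compound was tested against the DMSO libraries of its table with limma 3.58.1 (R 4.3.3; mean trend, robust) on log2(normalized count + 1), with 10 or more normalized counts in 2 or more libraries, two-sided, and Benjamini-Hochberg adjustment over all tested genes (threshold 0.05). Compounds were compared in 1 fit per line and time after alignment through shared DMSO libraries, and lines through an interaction. Fits were tested on simulated data. Labels do not say that the 2 samples of a group are separate cultures, so p-values measure the spread between these samples, which may be technical. Comparisons between compounds numbered 13 and between lines 4, of which 3 were added after the data were seen. For MS177-N1 in T47D, 1 column of values was not used. The members and lists were chosen with earlier results of these data known. Members named with values are 8 always given (NCL, NPM1, FBL, POLR1A, POLR1B, DKC1, NOP56 and BOP1), the 3 largest calls in each direction for MS177, MS8815 and the line comparisons, 2 per direction of other pathway lists, and further members chosen after their values were seen.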

Additional observations from a re-analysis of the deposited data

Results flagged for a closer look

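The response to MS177 differed between T47D-TR and BT-549 by the interaction test for 8 of the 44 genes, all with a lower value in T47D-TR. That is 18.2% of them, beside 17.6% of all 11945 tested genes lower and 14.9% higher, so the share lower is at the background. The largest differences were TCOF1 at -1.76 ± 0.38, POLR1B at -1.69 ± 0.23 and NHP2 at -1.60 ± 0.33 on the log2 scale (limma), each of which fell with MS177 in T47D-TR and was not called in BT-549. Leaving out 1 library at a time gave 5 to 8 such genes, the 5 being without BT-549 DMSO replicate 1. Proliferation markers took 0.0391% and 0.0406% of the MS177 libraries of T47D-TR, beside 0.357% and 0.362% in DMSO, and 0.324% and 0.301% of those of BT-549, beside 0.467% and 0.497%, and their part in the difference was not tested.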

How the results depend on the processing

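The counts of members called were recomputed with the deposited log2 values, a pseudocount of 10, no filter, quantile scaling, a fit of all libraries of a line and time (or of only those compared), limma voom on recovered reads, and, added after the data were seen, a shift of the median of all genes to 0 and crossed replicate numbers. With MS177 against DMSO, T47D-TR gave 25 to 28 calls under the settings run there (limma voom and crossed numbers were not). BT-549 gave 24 to 31 beside its 29 (22.6% to 30.85% of all genes), apart from 13 under the replicate block and 43 under crossed numbers. The fit of all libraries gave 6 for MS177 in T47D (18.1% of all genes), 0 for MS177-N1 in T47D-TR (0.033%) and 0 for MS8815 (0.0864%). No filter gave 1 for MS8815 (3.13%). With only the compared libraries, MS177 against MS177-N2 and against C24 in T47D gave 0 each (0% of all genes). MS177-N1 against MS177-N2 in T47D-TR gave 16 (21.5%). A pseudocount of 10 gave 3 for the MS177-N1 response of T47D-TR minus BT-549 (4.31%). The cause of these shifts was not tested.

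Replicate numbers are shared by the groups at 48 h. The replicates' deviations correlated between -0.355 (MS177 in BT-549) and 0.379 (MS177-N1 in BT-549), with 0.291 for MS177-N2 in T47D-TR. Whether a number marks libraries handled together was not tested. With the number as a replicate block, the counts were 13 for MS177 (17.9% of all genes) and 17 for MS177-N1 (17.0%) in BT-549, 1 for MS177 in T47D (5.33%), 1 for MS177-N2 in T47D (0.466%) and 1 in T47D-TR (0.230%), 2 for MS177 against MS177-N2 (9.37%) and 4 against C24 (11.9%) in T47D, 1 for MS177-N1 against MS177-N2 in T47D-TR (0.160%), 4 for the response of T47D-TR minus BT-549 (16.7%) and 11 for that to MS177-N1 (14.5%). Crossed numbers gave 43 for MS177 (60.15% of all genes), 6 for C24 (15.9%) and 22 for MS177-N2 (30.3%) in BT-549 and 5 for MS177 in T47D (10.6%). The block changed no count of the MS8815 comparisons with MS8815-N and EPZ-6438. It was not possible against DMSO at 30 h, where DMSO has other numbers, or with the 1 MS177-N1 library of T47D.

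Leaving out 1 library at a time, with a lone library assumed to vary like the others, gave ranges of calls against DMSO of 14 to 32 for MS177, 0 to 2 for C24, 0 for MS177-N1 and 0 to 4 for MS177-N2 in BT-549; 0 to 34 for MS177, 0 to 5 for C24 and 0 to 4 for MS177-N2 in T47D; and 23 to 28 for MS177, 0 to 13 for MS177-N1, 0 for MS177-N2 and C24, 0 to 30 for MS8815, 0 to 28 for MS8815-N and 0 to 25 for EPZ-6438 in T47D-TR. Against MS177-N1, MS177-N2 and C24, MS177 gave 18 to 29, 31 to 35 and 24 to 32 in BT-549, 12 to 15, 16 to 19 and 15 to 27 in T47D-TR, and 26 to 35, 0 to 37 and 0 to 37 in T47D. MS8815 gave 0 to 13 against MS8815-N and 0 against EPZ-6438, and MS177-N1 gave 0 to 1 against MS177-N2 and 0 to 16 against C24. Responses gave 5 to 8 for T47D-TR minus BT-549, 0 to 23 for T47D minus BT-549, 0 to 24 for T47D-TR minus T47D and 0 to 16 for MS177-N1. Over all genes the share called also changed from fit to fit, so these ranges are not a result about the members alone. Signs turned for members not called in the fit of all libraries of a table: without MS8815-N replicate 1 and 2 respectively, BOP1 was at -1.33 and 0.47, NPM1 at -0.82 and 0.36, POLR1A at 4.57 and -1.55 and POLR1B at 1.71 and -1.07. In T47D without MS177 replicate 1 and 2, BOP1 was at -0.68 and 0.56, NOP56 at -0.56 and 0.49, and FBL at -0.55 and 0.96. NOP56 was at -0.52 and 0.44 without MS8815 replicate 1 and 2. Depth is unknown in T47D-TR, so what it limits there was not tested.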
